A study of Mus musculus with 2 samples.

Results

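Open chromatin inside the first introns of genes was described in mouse heart at 15 days of age, in the library of Ythdc1 CKO mice (cardiac knockout) and in that of Ythdc1flox/flox mice (floxed, the control). The peaks were taken from the authors' table of 58076 regions merged over both libraries, and a peak counted as a first intron peak where the authors' annotation placed it in intron 1 of a transcript. This gave 5741 peaks, 9.89% of all, in 2625 host genes. Tissue, age and normal chow were common to both groups, and the knockout was described by the submitters as specific to the heart. The labels name neither the promoter driving the recombinase, nor the deleted exons, nor the number of animals behind each library. The libraries came from whole heart, so fewer cells of a type and less open chromatin per cell cannot be told apart. Each genotype had 1 library, so no difference below has a replicate check and no p-value was computed.

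ATAC-seq uses the Tn5 transposase, which inserts sequencing adapters where DNA is not covered by nucleosomes, so that counts pile up over promoters and enhancers. The first intron of a gene lies next to its promoter and is often its longest intron. It is known as a frequent home of enhancers, of alternative start sites and of elements that set the tissue in which a gene is active. Ythdc1 encodes a nuclear protein that binds N6-methyladenosine in RNA and acts in splicing, RNA export and the control of chromatin-associated RNA.

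Some first intron peaks overlapped a window round a start site of RefSeq. The sequences printed are those of the windows and not of the peaks, and a peak can cover its window only in part. Of the 5530 first intron peaks on chromosomes covered by the RefSeq table (GRCm38.p6), 34 (0.615%) overlapped a window of 250 bases before to 50 bases after an annotated start. The share was 0.583% of later intron peaks and 54.2% of peaks within 1 kb of a start in the authors' annotation. It was 1.80% of distal intergenic peaks and 1.10% of peaks 1 to 3 kb from a start. That annotation gives peaks within 3 kb of its starts to the promoter. Intron peaks thus lie away from all of its starts, so the low share and the contrast with promoter peaks are largely set by this rule. In 27 of the 34 the RefSeq start belonged to a long noncoding RNA and in 7 to a protein-coding gene. The 4 windows under peaks at least 2-fold higher in the CKO library, and that of Trim30a as a case with little difference, are printed 5′ to 3′ on the strand of the RefSeq gene. They were chosen after their values were seen. Capitals mark an E-box (CAGCTG), a TEAD motif (GGAATG or CATTCC) or a GATA motif (AGATAA or TTATCT), each searched on both strands together with the TATA box (TATAAA or TTTATA), and no matches of different motifs overlapped in these windows.
Gm30042: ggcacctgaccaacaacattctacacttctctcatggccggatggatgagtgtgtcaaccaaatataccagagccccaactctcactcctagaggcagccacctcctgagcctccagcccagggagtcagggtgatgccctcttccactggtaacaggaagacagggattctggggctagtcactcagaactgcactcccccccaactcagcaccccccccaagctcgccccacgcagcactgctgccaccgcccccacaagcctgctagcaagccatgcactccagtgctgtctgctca
Ahnak2: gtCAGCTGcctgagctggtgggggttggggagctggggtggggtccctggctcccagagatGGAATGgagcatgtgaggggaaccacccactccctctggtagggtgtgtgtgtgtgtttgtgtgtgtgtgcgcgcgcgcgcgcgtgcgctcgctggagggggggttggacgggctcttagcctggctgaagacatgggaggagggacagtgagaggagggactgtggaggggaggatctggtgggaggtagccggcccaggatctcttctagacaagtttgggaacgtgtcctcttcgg
Gm39250: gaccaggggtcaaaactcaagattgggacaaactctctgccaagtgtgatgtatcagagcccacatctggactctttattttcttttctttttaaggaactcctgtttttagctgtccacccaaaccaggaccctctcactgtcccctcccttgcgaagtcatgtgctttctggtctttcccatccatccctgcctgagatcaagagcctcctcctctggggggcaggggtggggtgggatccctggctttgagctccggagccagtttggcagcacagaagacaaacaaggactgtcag
Gm38597: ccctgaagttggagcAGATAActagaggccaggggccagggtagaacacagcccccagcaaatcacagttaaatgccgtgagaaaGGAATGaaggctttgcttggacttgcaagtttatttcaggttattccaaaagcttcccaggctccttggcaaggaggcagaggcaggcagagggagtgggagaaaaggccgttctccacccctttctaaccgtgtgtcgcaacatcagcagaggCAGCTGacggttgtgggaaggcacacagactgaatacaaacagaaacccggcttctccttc
Trim30a: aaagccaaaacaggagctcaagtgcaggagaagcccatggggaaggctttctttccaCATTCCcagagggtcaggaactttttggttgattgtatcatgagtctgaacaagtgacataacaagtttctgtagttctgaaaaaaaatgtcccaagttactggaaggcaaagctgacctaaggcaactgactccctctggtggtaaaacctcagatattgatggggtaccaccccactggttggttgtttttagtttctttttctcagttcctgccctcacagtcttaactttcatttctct

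The Gm30042 window (chr19:10289922-10290221, plus strand) lies in the first intron of Dagla, which encodes a lipase that makes an endocannabinoid, and its peak held 131 counts in the CKO library against 63 in the flox/flox library. The Ahnak2 window (chr12:112795693-112795992, minus strand) lay under a peak with 130 against 59 counts. The Gm39250 window (chr8:110760184-110760483, plus strand) lies in the first intron of Il34, which encodes a ligand of the CSF1 receptor, and its peak held 63 counts in the CKO library and 29 in the flox/flox library. The Gm38597 window (chr19:56977551-56977850, plus strand) lies in the first intron of Afap1l2, and the counts of its peak were 60 against 25. That peak (chr19:56977734-56977937) covers only the later part of the window, so the marked GATA and TEAD motifs lie outside the peak. All 4 peaks were called in the CKO library alone, and none of the 34 was at least 2-fold lower. Over all first intron peaks 7.30% were higher and 11.0% lower by this rule, against 6.09% and 8.96% of all peaks. The peak over the Trim30a window (chr7:104446076-104446375, minus strand) was called in both libraries, with 138 counts in the CKO library and 158 in the flox/flox library. Under the 34 peaks lay 36 windows. Of these, 12 (33.3%) held an E-box, 8 (22.2%) a TEAD motif, 6 (16.7%) a GATA motif and 2 (5.56%) a TATA box. Over all 32817 RefSeq windows these shares were 16.3%, 14.7%, 11.2% and 13.6% in the same order, and the median GC content was 52.7% in both sets. The sets were not matched by type of gene, and 27 of the 34 peaks lay over the start of a long noncoding RNA. A match of these letters is a description and does not show that a factor binds.

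Depth was close in both libraries, with 6466537 counts in peaks for the CKO library and 6755590 for the flox/flox library, 11.8% and 13.3% of the totals that the authors' normalized values imply. Counts were scaled to CPM (counts relative to these sums), 0.5 counts were added per library, and the log2 ratio of CKO to flox/flox was taken. Intervals are exact 95% intervals of the ratio and cover counting error only, not the variation between hearts or preparations. The single peak assigned to Ythdc1, at its promoter, held 314 counts in the CKO library and 358 in the flox/flox library, which does not check the deletion because a promoter need not lie in the deleted part. Ythdc1 hosted no first intron peak. Of the 10 defining cardiomyocyte markers, 9 had a promoter peak, with Myh6 at 758 and 799 counts in the CKO and flox/flox libraries. Their log2 ratios went in both directions, between -0.72 (Myl2) and 0.23 (Ttn). Nkx2-5 was at -0.63, Tnni3 at -0.52, Ryr2 at -0.44 and Myh6 at -0.01, and Actn2 was at 0.20, Tnnt2 at 0.19 and Mybpc3 at 0.11.

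First intron peaks were narrow and lay some way inside the gene. Their width had quartiles of 237, 309 and 424 bp. The distance to the nearest start site, in either direction, had quartiles of 6.64, 11.7 and 22.6 kb, and 90% of peaks lay within 41.6 kb. The closest was 3004 bp away, since the authors' annotation gives peaks within 3 kb of a start to the promoter, so the region of the first intron next to the promoter is not part of the set. Later intron peaks lay farther out, with quartiles of 7.64, 15.1 and 31.1 kb. A total of 3690 first intron peaks lay downstream of the nearest start and 2051 upstream of it. The host gene was also the gene of the nearest start in 3819 peaks (66.5%), and for the other 1922 a different gene had the nearest start.

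Most hosts carried few peaks and a small group carried many. There was 1 first intron peak in 1447 hosts (55.1%), 2 to 4 in 920, and 5 or more in 258, which together held 1935 peaks (33.7%). Apart from the gene described next, the hosts with most peaks were Maml3, a coactivator of Notch signalling, with 18, and Rora, a nuclear receptor of the circadian clock, Ablim1, an actin-binding LIM protein, and Rbm20, the splicing regulator of titin, with 17 each. A single Ensembl gene, ENSMUSG00000092329, was given as host of 186 peaks (3.24%), spread over 4.32 Mb of chromosome 8. All were annotated to 1 transcript with 15 introns, their nearest starts were those of 62 other genes, and none was nearest to the start of its host. Without it the median log2 ratio of first intron peaks was -0.12 in place of -0.11. Taken over peaks, the host transcript had a median of 8 introns, and 596 peaks (10.4%) lay in transcripts with 1 intron only.

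First intron peaks had a slightly lower median ratio than all peaks together, and so had later intron and distal intergenic peaks. The 5741 peaks together held 387150 counts in the CKO library and 416191 in the flox/flox library. Their median log2 ratio was -0.11 (SD over peaks 0.77), with 43.7% of peaks above 0. It was -0.15 for 11306 later intron peaks, -0.09 for 13749 distal intergenic peaks, -0.02 for 19366 peaks within 1 kb of a start and -0.05 for all peaks. By a fixed rule of size, 419 first intron peaks (7.30%) had at least 2-fold more in the CKO library, against 6.09% of all peaks. At least 2-fold lower were 634 (11.0%), against 8.96% of all peaks. In later introns these shares were 7.84% and 13.3%. The plot of shares by class and by signal sets these values beside the strength of the peaks. First intron peaks had a median of 7.78 CPM over both libraries, promoter peaks within 1 kb 21.1 and later intron peaks 7.09.

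**Figure D1:**
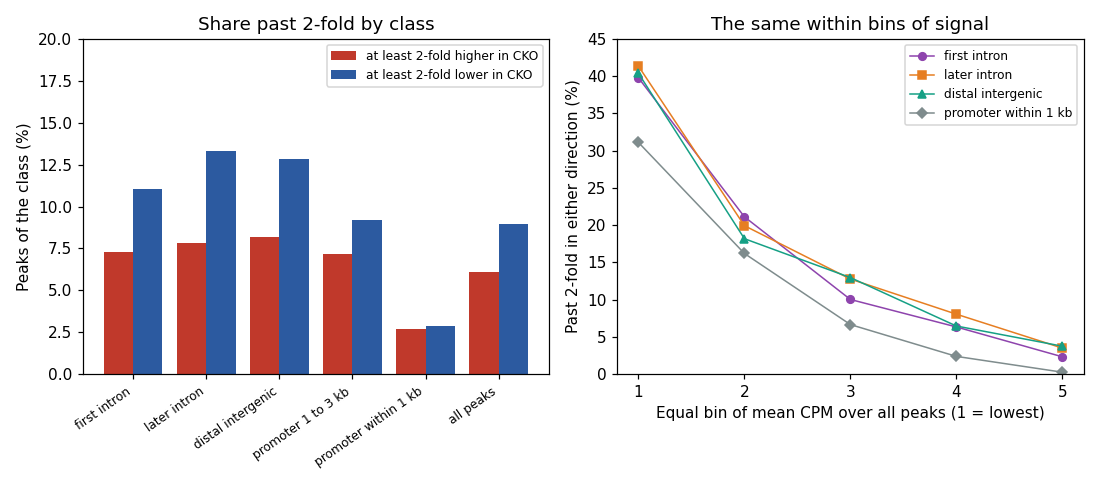
Left, the share of peaks in each annotation class that was at least 2-fold higher (red) or lower (blue) in the CKO library than in the flox/flox library. Right, the share past 2-fold in either direction (vertical axis, %) within 5 equal bins of mean CPM over all peaks (horizontal axis), by class: for first intron peaks it is 39.8% in the lowest bin and 2.34% in the highest, and the lines of first intron, later intron and distal peaks run close together.

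Within 5 equal bins of signal over all peaks, first and later introns lay close together. In the lowest bin the median log2 ratio was -0.41 over 1300 first intron peaks and -0.44 over later intron peaks. In the highest bin it was 0.03 over 385 first intron peaks and 0.08 over later intron peaks. In that bin 1.30% of first intron peaks passed 2-fold upwards and 1.04% downwards. Of the 2253 first intron peaks above the median signal of all peaks, 73 (3.24%) were higher and 79 (3.51%) lower by this rule, against 2.13% and 2.26% of all peaks above it. Most first intron peaks past 2-fold were thus weak. With a 1.5-fold rule, 965 (16.8%) were higher and 1469 (25.6%) lower, against 14.4% and 20% of all peaks.

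The library in which the authors called a peak divided the first intron peaks further. Both libraries had a call in 2493 peaks (43.4%), the CKO library alone in 1079 (18.8%) and the flox/flox library alone in 2169 (37.8%). Over all 58076 peaks these shares were 55.0%, 15.9% and 29.1%. A peak called in 1 library alone is selected for a high count there: all but 31 of the 419 higher peaks, and all but 35 of the 634 lower ones, were of that kind. The peaks called in both libraries had a median log2 ratio of 0.02. Of them 31 (1.24%) were higher and 35 (1.40%) lower by at least 2-fold, against 0.851% and 1.02% of all peaks called in both libraries. Over all first intron peaks, the interval of the ratio, which covers counting error only, left out 1 for 2447 (42.6%). The same share was not computed over all peaks, so this value has no background here.

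**Figure D2:**
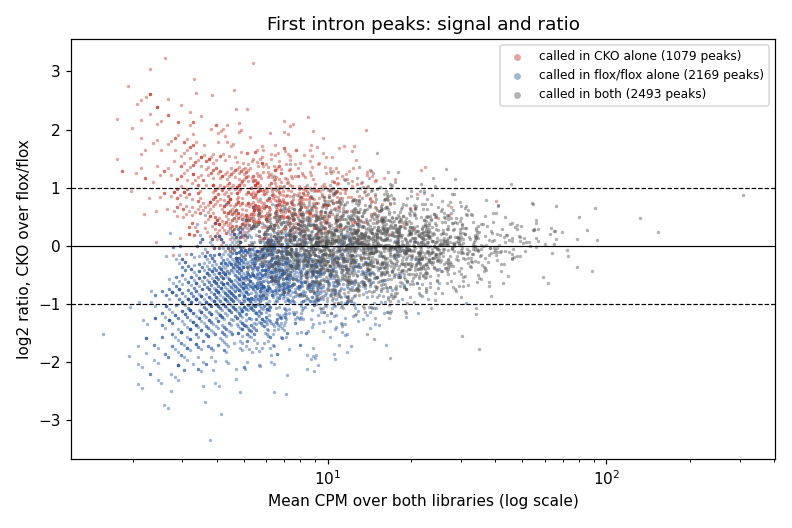
Each point is 1 of the 5741 first intron peaks, with its mean CPM over both libraries (horizontal, log scale) and its log2 ratio of CKO over flox/flox (vertical); dashed lines mark 2-fold. Red points were called in the CKO library alone (1079), blue in the flox/flox library alone (2169) and grey in both (2493); the grey points gather around 0 and the coloured points fill the 2-fold margins at low signal.

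The choice of scaling moved the balance between higher and lower peaks. With the authors' RPM, which divides by library totals and not by counts in peaks, the median shift of the log2 ratio over first intron peaks was -0.17, with shifts from -0.20 to -0.15 at the named peaks, and the median of all peaks was -0.22. The shift varies with the counts because the authors add 1 count per peak in place of 0.5. The higher peaks then made up 24.2% of the first intron peaks past 2-fold (288 higher and 902 lower), against 39.8% with scaling by counts in peaks. The difference between the median of first intron peaks and that of all peaks was -0.06 under both scalings. This is no separate check, because a scaling factor shifts all log2 ratios alike, apart from the added counts.

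Among first intron peaks above their median signal, 1 per named host, Mpp7, Sdc4 and Agfg2 hosted the 3 highest ratios. A peak in Mpp7, a scaffold of cell junctions, held 91 counts in the CKO library and 20 in the flox/flox library, a ratio of 4.75 (2.91 to 8.15). In Sdc4, which encodes the proteoglycan syndecan-4 of focal adhesions, a peak (chr2:164432521-164433122) held 143 against 37 counts, a ratio of 4.04 (2.80 to 5.96). A peak of Agfg2 (chr5:137671134-137671475) held 92 counts in the CKO library and 24 in the flox/flox library. A total of 10 peaks was taken by this rule, and all 10 were called in the CKO library alone. Acer2, an alkaline ceramidase of the Golgi, had 98 against 28 counts, and Fam163b had 87 against 27. Clic5, a chloride intracellular channel protein, had 124 counts in the CKO library and 39 in the flox/flox library (chr17:44230923-44231349, ratio 3.32, 2.30 to 4.89). Slc8a1, the sodium-calcium exchanger that removes calcium from the heart muscle cell, had 114 against 36 counts (chr17:81470822-81471132, ratio 3.31, 2.26 to 4.96). The list closed with Hip1, an adaptor between clathrin and actin (109 against 35), Gas7 (85 against 28) and Nr1h4, the bile acid receptor (120 against 40).

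The lowest ratios by the same rule were hosted by Dgki, Smad1 and Prdm1. A peak in Dgki, a diacylglycerol kinase, held 21 counts in the CKO library and 99 in the flox/flox library, a ratio of 0.222 (0.131 to 0.358). In Smad1, the transducer of BMP signals, a peak (chr8:79381780-79382101) held 23 against 101 counts, a ratio of 0.238 (0.144 to 0.377). In Prdm1, a transcriptional repressor, the counts were 28 against 115 (chr10:44502639-44503359, ratio 0.254, 0.162 to 0.387). All 3 peaks lay between 17 and 26 kb downstream of the start of their host. The other 7 hosts were Garem1 (23 against 94), Agpat5, an acyltransferase of phospholipid synthesis (45 against 180), Tnfsf15, a cytokine of the tumour necrosis factor family (24 against 95), Plekhg1 (23 against 90), Lingo3 (25 against 97), Osbpl8, a lipid transfer protein (29 against 112), and Inka2 (33 against 124). Agpat5 was called in both libraries and the other 9 in the flox/flox library alone.

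Peaks called in both libraries are not selected for a call in 1 of them, and their differences were smaller. The highest ratio was in Pecam1, the adhesion molecule of endothelial cells, where a peak (chr11:106722710-106723208) held 146 counts in the CKO library and 50 in the flox/flox library, a ratio of 3.05 (2.20 to 4.29). The other 4 first intron peaks of Pecam1 had log2 ratios between -0.67 and 0.81, so no other first intron peak of this gene was past 2-fold. Slc10a6, a transporter of steroid sulfates, followed with 121 against 49 counts (ratio 2.58), and Tns1, which encodes the focal adhesion protein tensin-1, with 246 against 102 (chr1:74081523-74082056, ratio 2.52, 1.99 to 3.21). A peak of Ctdspl, a phosphatase gene, held 131 counts in the CKO library and 55 in the flox/flox library (chr9:119002251-119002636, ratio 2.49, 1.80 to 3.47). Mecom, a zinc finger transcription factor, had 94 against 40 counts (ratio 2.46, 1.68 to 3.65).

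The start nearest to that Ctdspl peak was that of Mir26a-1, a microRNA gene carried inside Ctdspl, 29160 bases away. Its main mature product (chr9:119031811-119031832, plus strand, RefSeq GRCm38.p6) is shown to identify it, with the seed, bases 2 to 8, in capitals.
mmu-miR-26a-5p: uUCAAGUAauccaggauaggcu
No first intron peak overlapped a microRNA hairpin of the RefSeq table, and the microRNA itself was not measured.

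At the low end of the peaks called in both libraries, Agpat5 came first, with 45 counts in the CKO library and 180 in the flox/flox library (chr8:18852525-18852981, ratio 0.261, 0.184 to 0.364). Foxo6, a forkhead transcription factor, had 102 against 367 counts (chr4:120277046-120277963, ratio 0.290, 0.231 to 0.363). Rbpj, the DNA-binding partner of Notch, had 100 against 307 (chr5:53472491-53473067, ratio 0.340, 0.269 to 0.428). The Foxo6 and Rbpj peaks had more counts than most first intron peaks, whose median was 49 in the CKO library and 54 in the flox/flox library. Dglucy, a D-glutamate cyclase, had 46 against 139 counts, and Prcp, a carboxypeptidase, 33 against 96.

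**Figure D3:**
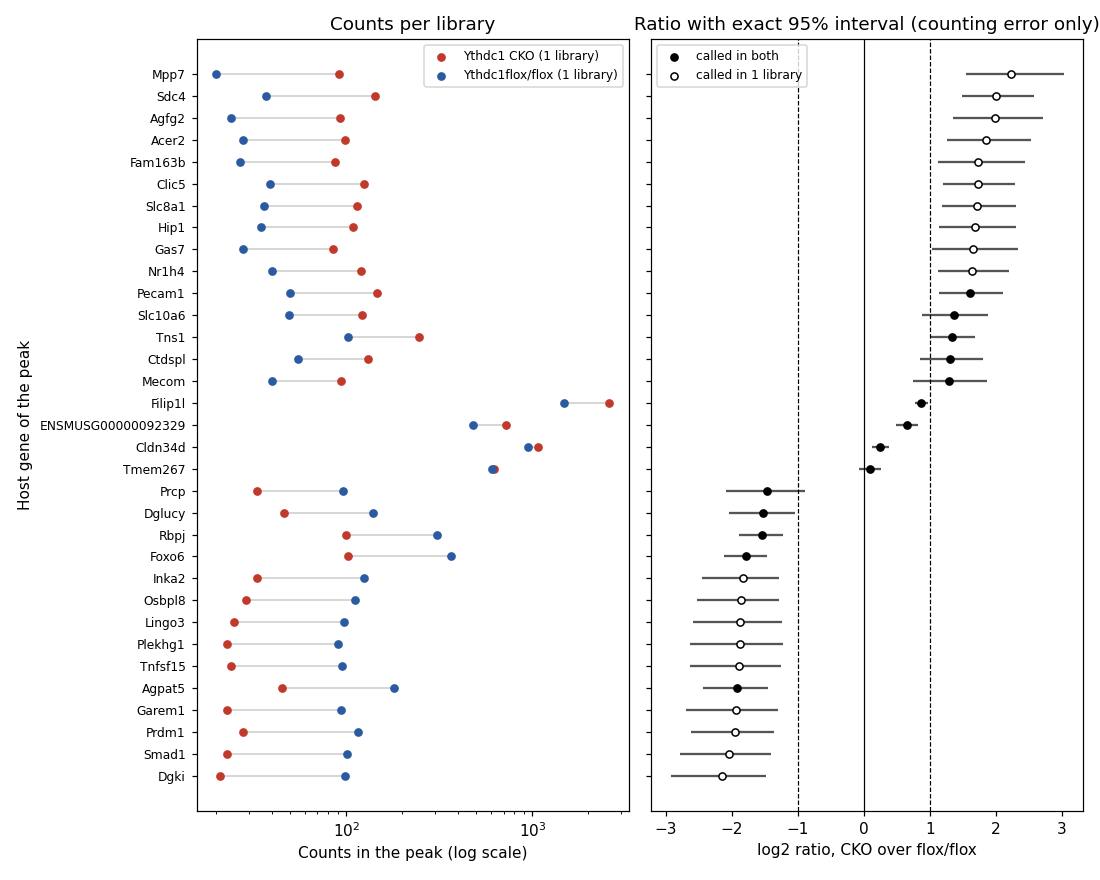
Left, the counts of named first intron peaks in the Ythdc1 CKO library (red) and the Ythdc1flox/flox library (blue), on a log axis, 1 row per peak labelled by its host gene. Right, the log2 ratio of CKO over flox/flox with its exact 95% interval (counting error only), filled where the peak was called in both libraries; Mpp7 is at the top with a log2 ratio of 2.22, Dgki at the bottom with -2.15, and the strongest peaks, such as Filip1l at 0.87, lie inside the dashed 2-fold lines.

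The strongest first intron peaks differed by less than 2-fold. The strongest of all lay in Filip1l, which encodes a protein that interacts with filamin, and held 2591 counts in the CKO library and 1480 in the flox/flox library (chr16:57391179-57391776, ratio 1.83, 1.72 to 1.95). The other 11 first intron peaks of Filip1l held at most 86 counts in either library, with log2 ratios between -1.37 and 0.56. Other strong peaks were those of Cldn34d, of the claudin family of tight junction genes, with 1070 against 944 counts (ratio 1.18), Tmem267 with 619 against 606 (1.07), and a peak within ENSMUSG00000092329 nearest to Gse1 with 717 against 477 (1.57). For Tmem267 the interval of 0.952 to 1.20 included 1.

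Within a single first intron, peaks often differed in direction. Over the 258 hosts with at least 5 peaks, the median SD of log2 ratios within a host was 0.59, against 0.77 over all first intron peaks. The host medians lay between -1.22 and 0.84, and 103 of 258 were above 0. Some hosts were uniform: every peak was above 0 in 8 hosts and below 0 in 10. Of 837 hosts with any peak past 2-fold, 57 had peaks past 2-fold in both directions.

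In the first intron of Slc8a1 nearly every peak was higher in the CKO library. Of its 16 peaks over chr17:81469055-81637059, 15 were above 0 and 3 were at least 2-fold higher, with a median log2 ratio of 0.66. Summed over the intron there were 1896 counts in the CKO library and 1269 in the flox/flox library, a ratio of 1.56 (1.45 to 1.68). The 3 peaks past 2-fold held 114, 91 and 82 counts in the CKO library and 36, 29 and 31 in the flox/flox library, and each was called in the CKO library alone. The strongest peak of the intron, called in both libraries, held 310 against 220 counts. The 8 peaks called in both libraries were all above 0, with log2 ratios from 0.02 to 0.76, and 7 of the 8 were above 0 with RPM scaling. As hosts, Slc8a1, Bcl2, Ctdspl, Clic5, Il34, Psd3, Pcdh7 and Mecom were chosen after their values were seen.

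Bcl2, an inhibitor of apoptosis, had the highest median among hosts with at least 5 peaks, 0.84, with all 11 peaks above 0. Its sum was 522 counts in the CKO library and 335 in the flox/flox library (ratio 1.63, 1.42 to 1.87). The peaks were weak, with 19 to 131 counts in the CKO library and 11 to 79 in the flox/flox library. Of the 11, 3 were called in both libraries, with log2 ratios from 0.21 to 0.79. Most of the others were called in the CKO library alone, so the sum includes peaks selected for a high count there. Its promoter peak held 244 against 262 counts. Ctdspl had all 8 peaks above 0, with 644 counts in the CKO library and 377 in the flox/flox library (ratio 1.78, 1.57 to 2.03), while its promoter held 57 against 61. With RPM scaling 10 of 11 peaks of Bcl2 and 7 of 8 of Ctdspl were above 0. In Clic5, 7 of 8 peaks were above 0, with 814 against 506 counts. In Il34 all 6 peaks were above 0 (394 against 266 counts), and there the promoter differed too, with 64 counts in the CKO library and 26 in the flox/flox library.

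Among hosts on the other side, Psd3 had the lowest median among hosts with at least 5 peaks, -1.22, with 146 counts in the CKO library and 250 in the flox/flox library over 6 peaks, 4 of them at least 2-fold lower. Pcdh7, a protocadherin, had all 5 peaks below 0 (220 against 439 counts), and its promoter had 82 against 141. Rora had 13 of 17 peaks below 0, with 982 counts in the CKO library and 1266 in the flox/flox library (ratio 0.810, 0.745 to 0.881). One of the Rora peaks was also the first intron peak farthest from a start, at 259615 bp, with 20 against 46 counts.

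The other hosts with most peaks were mixed. Ablim1 had 14 of 17 peaks above 0 and none past 2-fold, with a sum of 2365 counts in the CKO library and 1969 in the flox/flox library (ratio 1.25, 1.18 to 1.33). Its promoter, at 350 against 301 counts, and its 8 later intron peaks, with a median log2 ratio of 0.46, were also above 0. Maml3 had 10 of 18 peaks above 0 and 2084 against 2068 counts. Rbm20 had 8 of 17 above 0 and 2323 against 2595 counts, and its peaks ran from a log2 ratio of -0.75 to 1.14. In Rbm20 the strongest peak held 442 counts in the CKO library and 522 in the flox/flox library, whereas a peak past 2-fold held 133 against 63. Mecom had peaks past 2-fold in both directions, 4 higher and 1 lower, among 15.

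**Figure D4:**
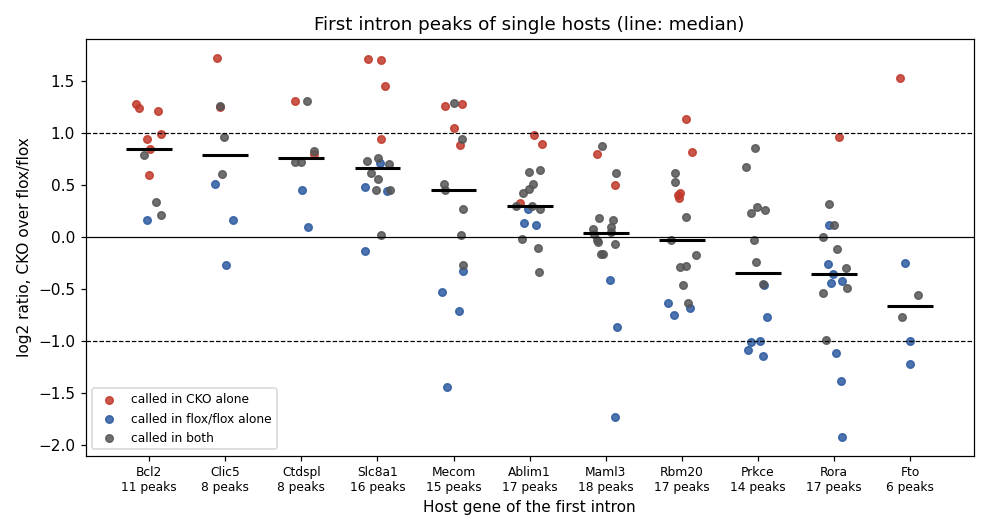
Each point is a first intron peak, placed by its host gene (horizontal) and its log2 ratio of CKO over flox/flox (vertical), coloured by the library in which it was called; the black line is the median of the host and dashed lines mark 2-fold. Bcl2 and Ctdspl have every peak above 0 with scaling by counts in peaks (10 of 11 and 7 of 8 with RPM scaling), and Maml3, Rbm20 and Prkce have peaks on both sides.

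First introns and promoters of the same gene were only loosely related. In 1967 hosts with a peak within 1 kb of a start, Pearson's r between the host mean of first intron log2 ratios and the log2 ratio of the promoter was 0.17, with both measures sharing the same pair of libraries. Only 2.49% of these promoters were past 2-fold. In the 279 such hosts with a first intron peak at least 2-fold higher, 271 promoters were within 2-fold, and 6 were themselves at least 2-fold higher. In the 389 hosts with a first intron peak at least 2-fold lower, 378 promoters were within 2-fold, and 8 were at least 2-fold lower. Promoter peaks hold more counts than intron peaks, and the part of this in the weak relation was not tested. First and later introns of the same host had an r of 0.13 over 1224 hosts, and 0.30 over the 249 with at least 3 peaks in each.

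The ratios of neighbouring peaks of an intron were weakly related. Over all first intron peaks, r between neighbours in the same host was 0.16 over 1030 pairs up to 5 kb apart, 0.15 over 1380 pairs from 5 to 20 kb apart and 0.08 over 704 pairs farther apart, with 54.9% of the closest pairs on the same side of 0. Among peaks called in both libraries alone, r was 0.43 over 244 pairs of neighbours in the same host up to 5 kb apart, with 66.4% of pairs on the same side of 0. It was 0.13 over 432 pairs from 5 to 20 kb apart, 0.17 over 335 pairs farther apart, and 0.03 over 1461 pairs in successive hosts on a chromosome. All pairs share both libraries, and a peak can enter more than 1 pair.

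The medians differed little with distance from the start. The median log2 ratio was -0.09 over 2467 first intron peaks up to 10 kb from a start, -0.12 over 2854 peaks from 10 to 50 kb and -0.11 over 420 peaks beyond 50 kb. At least 2-fold higher were 6.97%, 7.46% and 8.10% of these peaks from near to far, and at least 2-fold lower 10.2%, 11.3% and 14.5%. The peak nearest to a start lay 3004 bp upstream of the predicted gene Gm11941, inside Ankrd6, with 74 counts in the CKO library and 146 in the flox/flox library. Peaks upstream of the nearest start had a median of -0.10, and those downstream of it -0.11. By chromosome the median lay between -0.22 (chromosome 14) and 0.02 (chromosome 9).

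The gene lists below are described by their first intron peaks and carry no test, and the values of all first intron peaks stand for comparison: a median of -0.11, 43.7% above 0, 7.30% at least 2-fold higher and 11.0% lower. In the extracellular matrix list, 7 of 28 genes hosted 20 first intron peaks, with a median log2 ratio of 0.44 and 15 of 20 above 0. Its sum was 1552 counts in the CKO library and 1307 in the flox/flox library, a ratio of 1.24 (1.15 to 1.34), and 2 peaks were past 2-fold, both higher. Only 5 of the 20 were called in both libraries, with 8 called in the CKO library alone and 7 in the flox/flox library alone. Over all first intron peaks the CKO library alone had 18.8% of the calls. The sum and the count above 0 thus include peaks selected for a high count in 1 library. The strongest peaks of this list lay in Col4a1, a basement membrane collagen (255 against 248 counts), Eln, which encodes elastin (141 against 111), Timp2 (118 against 89) and Timp3 (90 against 56), both inhibitors of metalloproteinases. Col8a1, a collagen of vessel walls chosen after its values were seen, had a peak with 85 counts in the CKO library and 30 in the flox/flox library, called in the CKO library alone.

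Markers of cell types other than heart muscle cells were looked at beside it. In the endothelial list, 8 of 22 genes hosted 30 peaks with a median of 0.28, 18 of 30 (60.0%) above 0, and a ratio of sums of 1.22 (1.16 to 1.28). Past 2-fold were 5 higher and 1 lower, beside 7.30% and 11.0% of all first intron peaks. Mecom alone gave 15 of the 30 peaks, with most of those 5 higher peaks and the 1 lower peak among them. By host, 5 medians were above 0 and 3 below, those of Tek (-0.26), Pecam1 (-0.14) and Flt1 (-0.12). The strongest peaks of the list were in Eng, a co-receptor of TGF-beta family ligands (348 counts in the CKO library and 284 in the flox/flox library), Tek, the angiopoietin receptor (340 against 289), Mecom (279 against 205) and Ets1 (246 against 193). In the fibroblast list, 6 peaks in 4 hosts had a median of 0.22, and of -0.28 over those called in both libraries, with Meox1 at 340 against 282 counts and Cdh11, a cadherin, at 64 against 158. The smooth muscle and pericyte list had 4 peaks in 2 hosts with a median of 0.42, and its strongest, in the pericyte proteoglycan gene Cspg4, held 211 counts in the CKO library and 108 in the flox/flox library. Its other host, the integrin gene Itga7, had 64 against 132 counts, and the median over the 2 host medians was -0.20. Among hosts with a matched symbol, none belonged to the myeloid and lymphoid, skeletal muscle or housekeeping lists. The part of cell composition in these values was not tested.

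The lists of heart muscle genes had medians close to that of all first intron peaks. The cardiomyocyte marker list had 12 peaks in 2 hosts, Ryr2 and Actn2, with a median of -0.13, 4 of 12 above 0 and none past 2-fold. Its ratio of sums was below 1, at 0.890 (0.833 to 0.951). The ratio of sums was 0.939 (0.876 to 1.01) for the sarcomere list and 0.951 (0.894 to 1.01) for the cardiac transcription factor list. The strongest first intron peak of Ryr2, the calcium release channel, held 312 counts in the CKO library and 473 in the flox/flox library, a log2 ratio of -0.54, and its other 7 peaks lay between -0.27 and 0.29. In the sarcomere and Z-disc list, which shares Actn2, 18 peaks in 5 hosts had a median of -0.14, with Flnc, which encodes filamin C, at 204 against 148 counts and Myocd, a coactivator of serum response factor, at 123 against 178. The cardiac transcription factor list, which shares Myocd, had 21 peaks in 9 hosts with a median of -0.15, and of 0.08 over those called in both libraries, and none past 2-fold. There Tead1 had 270 counts in the CKO library and 237 in the flox/flox library, Mef2d 143 against 173, Gata4 170 against 142 and Mef2c 142 against 118.

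The calcium handling and ion channel list had most first intron peaks, 56 in 15 of 26 genes, with a median of 0.02, and of -0.15 with RPM scaling. Slc8a1 alone gave 16 of these peaks. Without it, an alternative added after seeing the data, the median over the other 40 was -0.28, and by host 9 of 15 medians were below 0. Of the 56, 8 (3 of them in Slc8a1) were past 2-fold upwards and 3 downwards. The strongest peak of Cacna1c, the pore subunit of the L-type calcium channel, held 183 counts in the CKO library and 282 in the flox/flox library, and that of Jph2, which holds the calcium release sites together, 219 against 240. Gja5, the gap junction gene connexin 40, chosen after its values were seen, had 4 first intron peaks, of which the strongest held 87 against 34 counts and was called in the CKO library alone. The fetal and stress gene list had a median of 0.02, and of -0.15 with RPM scaling, over 20 peaks, with Rcan1 at 244 against 262 counts and Fhl2 at 167 against 172.

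Lists of metabolism, signalling and the cytoskeleton lay close to the median of all first intron peaks. The medians were -0.11 over 17 peaks for fatty acid and mitochondrial metabolism, -0.16 over 35 peaks for insulin and growth factor signalling, -0.15 over 51 peaks for tension and actin regulators, and -0.13 over 9 peaks for glucocorticoid receptor targets, where it was 0.02 over those called in both libraries. The ratios of sums of these lists in the same order were 0.955 (0.896 to 1.02), 0.910 (0.853 to 0.970), 0.979 (0.941 to 1.02) and 0.940 (0.841 to 1.05). In the metabolic list, Cpt1a, which brings fatty acids into mitochondria, had a peak of 138 counts in the CKO library and 75 in the flox/flox library, and Cd36, a fatty acid transporter, one of 81 against 133. Among the growth factor genes, Irs1 had 200 against 191 counts and Egfr 129 against 87. Among the actin regulators, Pxn, which encodes paxillin, had 231 against 325 counts and Actn1 246 against 286.

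The lists closest to the function of Ythdc1 had few hosts or no common direction. In the list of m6A writers, readers and erasers, 2 of 20 genes hosted 7 peaks with a median of -0.77, 6 of them in Fto, which encodes an m6A demethylase, and 1 in Virma, a scaffold of the writer complex. Fto had 5 of 6 peaks below 0 and a sum of 279 counts in the CKO library and 424 in the flox/flox library (ratio 0.687, 0.589 to 0.801). Its remaining peak held 45 against 16 counts and was called in the CKO library alone. The Virma peak held 19 counts in the CKO library and 38 in the flox/flox library. The splicing regulator list had 30 peaks in 7 hosts, with a median of -0.01 (0.04 with TMM scaling) and 15 of 30 above 0. Rbm20 alone gave 17 of the 30, with a host median of -0.03. By host, 4 medians were above 0 and 3 below. Besides Rbm20 the list held Mbnl2, with 173 against 169 counts in its strongest peak, and Qk, with 73 against 98.

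**Figure D5:**
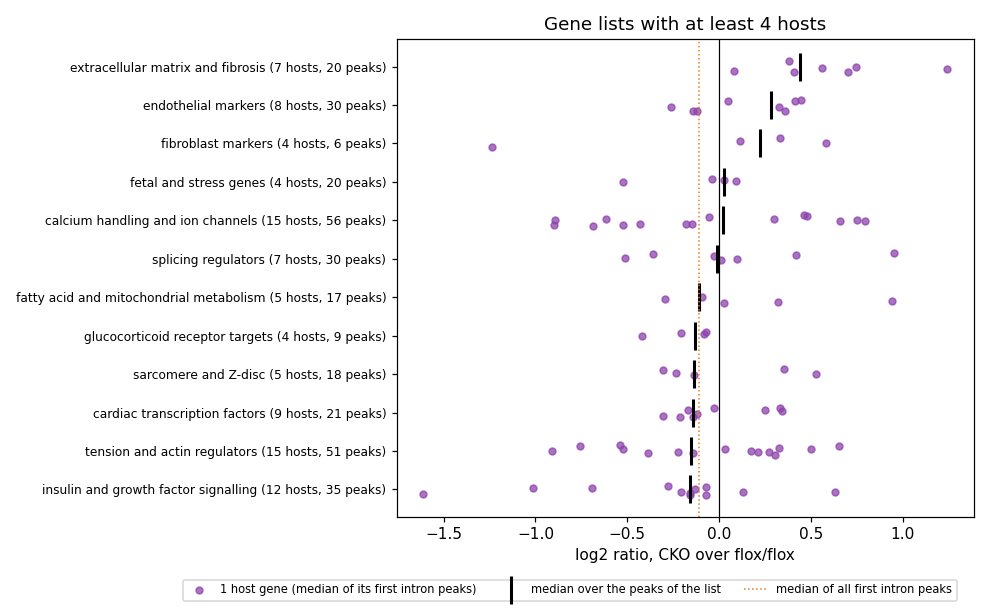
For the 12 lists with at least 4 hosts, each purple point is the median log2 ratio of CKO over flox/flox of the first intron peaks of 1 host gene (horizontal axis), and the black bar is the median over the peaks of the list. The extracellular matrix (0.44) and endothelial (0.28) lists lie right of the dotted line at -0.11, the median of all first intron peaks; signs of lists near 0 and of the fibroblast list depend on scaling or on the peaks used.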

How the data were processed

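Nuclei from heart were treated with Tn5 and sequenced as paired ends, per the labels' protocols, with 1 library for each genotype. BWA, MACS2 and GRCm38.p6 are named, without versions, in the submitters' processing notes, whereas read filters, duplicate removal and the Tn5 shift are not stated there. The authors deposited counts per merged peak (whole numbers, not normalized) with a mark for the library of the call. The authors' RPM equal (count + 1) times a constant, 0.01822 for CKO and 0.01965 for flox/flox. The deposited fold enrichment, a ratio, and the deposited log2 fold change follow from the same counts and were not used further. The deposited distance to the start, a score in bases signed by strand, and the annotation are the authors'.

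CPM was taken over counts in peaks, with 0.5 counts added, and no filter was applied: all 5741 peaks were kept. Exact (Clopper-Pearson) 95% intervals cover counting error only. Differences of at least 2-fold were a rule of size. The host is the gene in the annotation text. Ensembl IDs were matched to RefSeq symbols by position (overlap over union of at least 0.5), for 18646 of 24915 IDs (74.8%) and 2215 of 2625 hosts (84.4%). Named peaks were the 10 highest and 10 lowest ratios above the median signal (1 per named host, no predicted genes), the 5 highest and 5 lowest called in both libraries, the 5 strongest, the 5 hosts with most peaks, the nearest and farthest, and up to 4 hosts per list by signal. Some peaks under these rules are not reported here. Further names were chosen after their values were seen, as were the RefSeq start windows. Members and gene lists were chosen with earlier results of these data known. Sequence round the peaks was not analysed here, since no genome was used. Ratios and intervals were tested on simulated data. Alternatives were the authors' RPM, TMM (edgeR 4.0.16), median-of-ratios factors, 5 counts added, and subsets of peaks. Python 3.11.15, scipy 1.17.1 and R 4.3.3 were used.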

Additional observations from a re-analysis of the deposited data

How the results depend on the processing

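The median log2 ratio of first intron peaks (-0.11) was -0.28 with the authors' RPM, -0.06 with TMM (-0.0563) and with median-of-ratios factors (-0.0559), -0.0035 for peaks above the median signal, and 0.02 (0.0180) over peaks called in both libraries. Up to 10 kb from a start the values in that order were -0.26, -0.0385, -0.0381, 0.0051 and 0.0336, from 10 to 50 kb -0.29, -0.0683, -0.0680, -0.0114 and 0.0034, and for later introns -0.32, -0.0949, -0.0946, 0.0014 and 0.0138. Beyond 50 kb they were -0.28 with RPM, 0.0221 above the median signal, 0.0295 over peaks called in both and -0.25 with the strongest peak per host. The count of peaks at least 2-fold higher (419) was 73 above the median signal, 31 among peaks called in both, 166 with 1 peak per host, 278 where the host was nearest and 965 at 1.5-fold. The count of lower peaks (634) was 79, 35, 281, 404 and 1469. The causes of these shifts were not tested, except that the subsets hold fewer peaks. Of 144 alternative values of 36 named peaks, 5 moved by more than counting error, all with RPM, among them Tmem267, whose log2 ratio became -0.08, and 0 of those past 2-fold changed sign. Of 17 list medians, 2 changed sign with RPM, 1 with TMM, 1 with median-of-ratios factors and 3 over peaks called in both. Leaving out ENSMUSG00000092329, an alternative chosen after seeing the data, gave 403 higher and 619 lower peaks.

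No paired analysis was possible because each genotype had 1 library, and no library could be left out. Depth limits single weak peaks: the median interval of a first intron ratio ran from 0.638 to 1.34.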

Other observations

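In a few hosts the first intron and the later introns had medians on opposite sides of 0. The hosts given were chosen after their values were seen, as those with at least 5 first intron peaks and 4 later intron peaks whose medians lay farthest apart. In Psd3 the median log2 ratio was -1.22 over 6 first intron peaks and 0.63 over 5 later intron peaks. In Tns3, which encodes the focal adhesion protein tensin-3, it was -0.76 over 7 first intron peaks and 0.40 over 7 later ones. In Magi1, a scaffold of cell junctions, it was 0.30 over 12 first intron peaks and -1.07 over 4 later ones. In Gpc6, a glypican, it was 0.69 over 5 first intron peaks and -0.24 over 7 later ones. The promoters of these 4 hosts had log2 ratios of -0.25, -0.25, 0.28 and 0.51 in the same order.

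The adipocyte, neuronal and epithelial list had 4 first intron peaks in 3 hosts with a median of -0.33, among them Adipoq with 67 counts in the CKO library and 75 in the flox/flox library. The only host of the list of AP-1 and immediate early genes was Bach2, with 4 peaks and a median of -0.11.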
